A study of Mus musculus with 12 samples.

Results

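The 10 genes described are the immunoglobulin constant regions and the J chain of mouse liver: the heavy chain genes Ighm, Igha, Ighg1, Ighg2b, Ighg2c and Ighg3, the light chain genes Igkc, Iglc1 and Iglc2, and Jchain. They were chosen by name, and all 10 of the 10 names matched a row among the 46078 genes of the count table. The livers came from male C57BL/6 mice (C57BL/6J in the study's methods) aged 21 weeks that had become obese on a high fat diet, with 4 mice in each of 3 groups. VSG mice had a vertical sleeve gastrectomy, which removes most of the stomach. Sham-WM mice had sham surgery and were then food restricted to match the weight of the VSG mice, and Sham-Ad lib mice had sham surgery and unrestricted diet. All 3 groups were on high fat diet and gel diet around surgery, had a laparotomy, and received co-amoxiclav, an antibiotic, so no group shows unoperated liver. The study compared the groups to separate the effects of the operation from those of weight loss on the liver.

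An antibody is built from a pair of heavy chains and a pair of light chains. The constant region of the heavy chain sets the class: Ighm encodes that of IgM, the first class a B cell makes, Igha that of IgA, the class carried across mucosal surfaces, and Ighg1, Ighg2b, Ighg2c and Ighg3 those of the IgG subclasses, which a B cell can switch to after activation. The light chain is kappa (Igkc) or lambda (Iglc1, Iglc2), and the J chain joins IgM and IgA units into larger polymers. Hepatocytes do not make antibody, and B cells and plasma cells, the antibody-secreting form of the B cell, are the source of these transcripts in a tissue. The liver takes up IgA and carries it to bile, and its Kupffer cells, the resident macrophages, bind IgG through Fc receptors.

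The heavy chain members lie in 1 cluster on chromosome 12 of mm10, on the minus strand, in the order Ighm (chr12:113418558-113422730), Ighg3 (chr12:113356224-113361232), Ighg1 (chr12:113325240-113330523), Ighg2b (chr12:113302965-113307933), Ighg2c (chr12:113285325-113288932) and Igha (chr12:113254830-113260236). Igkc (chr6:70726435-70726966) is on the plus strand of chromosome 6, and Iglc1 (chr16:19061618-19062071), Iglc2 (chr16:19198396-19200351) and Jchain (chr5:88519809-88527891) are on minus strands. The 4 IgG genes are close relatives, so it matters whether reads can be assigned to the right one. Their coding sequences were 85.6% identical between Ighg2b and Ighg2c and 74.1% to 76.2% identical in the other 5 pairs, and no stretch of 100 bases in an annotated transcript of any member occurred exactly in a transcript of another gene. The hinge exons, which link the arms of the antibody to its stem, show how far the subclasses differ over a short stretch and are shown for that reason. They are given 5′ to 3′ on the minus strand from the GENCODE M21 transcripts, with the in-frame cysteine codons, whose side chains bond the heavy chains to each other, in capitals. They lie at chr12:113329844-113329882 (Ighg1), chr12:113307261-113307326 (Ighg2b), chr12:113288263-113288325 (Ighg2c) and chr12:113360529-113360576 (Ighg3).
Ighg1: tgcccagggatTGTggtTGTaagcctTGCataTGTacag
Ighg2b: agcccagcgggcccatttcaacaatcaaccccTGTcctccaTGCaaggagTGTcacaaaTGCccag
Ighg2c: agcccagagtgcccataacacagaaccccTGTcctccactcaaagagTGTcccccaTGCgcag
Ighg3: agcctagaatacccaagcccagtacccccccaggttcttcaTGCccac
The hinge exon held 4 cysteine codons in Ighg1, 4 in Ighg2b, 3 in Ighg2c and 1 in Ighg3, and was 39, 66, 63 and 48 bases long in that order.

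The lambda genes carry the closest pair in the families described. Iglc2 and Iglc3, a lambda gene outside the 10 members, were 96.2% identical over their coding sequence, whereas Iglc1 and Iglc2 were 73.4% identical. The same stretch of 120 coding bases near the start of each is given below on the minus strand, with the bases that differ from Iglc2 in capitals. It begins at the first coding base in Iglc1 and Iglc3, and after an extra annotated base in Iglc2. The stretches lie at chr16:19061952-19062071 (Iglc1), chr16:19198733-19198852 (Iglc2) and chr16:19065562-19065681 (Iglc3).
Iglc1: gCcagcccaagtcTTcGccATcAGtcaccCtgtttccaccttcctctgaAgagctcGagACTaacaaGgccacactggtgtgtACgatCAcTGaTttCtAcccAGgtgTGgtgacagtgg
Iglc2: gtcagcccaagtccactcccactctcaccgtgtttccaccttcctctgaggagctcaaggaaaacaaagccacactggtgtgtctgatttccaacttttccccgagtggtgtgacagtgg
Iglc3: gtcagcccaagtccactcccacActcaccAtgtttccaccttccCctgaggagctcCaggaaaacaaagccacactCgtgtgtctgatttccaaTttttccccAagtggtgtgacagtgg
In this stretch Iglc1 differed from Iglc2 at 28 bases and Iglc3 at 7. Reads with mismatches could be placed on either Iglc2 or Iglc3, so counts of Iglc2 are uncertain to that degree. Igkc, Iglc1 and Iglc2 also overlap other annotated genes (Gm30211, 2010309G21Rik and Iglj2).

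The libraries held 15122520 to 19384076 counts each, and the 10 members took 196 to 928 of these in the sham mice and 1235 to 4802 after VSG. Levels are given as CPM, the counts scaled to a common library size after TMM normalisation. Summed over the 10 members, the level was 26 ± 16.4 CPM for Sham-Ad lib, 18.1 ± 11.3 CPM for Sham-WM and 165 ± 94.6 CPM for VSG livers (SD, n = 4 each). In bulk tissue a change in the number of antibody-making cells cannot be told apart from a change in transcript per cell. All 10 members passed the filter on low counts, but the 4 IgG genes, Iglc1 and Iglc2 reached its level of 0.559 CPM in at most 2 Sham-Ad lib and 1 Sham-WM mice, against 3 or 4 VSG mice. They therefore entered the test through the group in which they were high. Alb, the albumin gene of hepatocytes, took 4.89% to 12.2% of the counts. The animal number shared by a library and a sample title set the groups. In all 12 samples the description field of the labels named the library of another animal, in 8 of them from another group. The descriptions ran in alphabetical order down the list of samples, whereas the titles ran by group. Under that grouping edgeR called 0 of all genes in each of the 3 comparisons, members and other lists included, against 98, 912 and 3509 genes under the grouping used. The library numbers ran consecutively within each of the 3 groups, so an effect of library order cannot be told apart from treatment.

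VSG livers held more immunoglobulin transcript than livers of weight-matched mice in 9 of the 10 members, by log2 fold changes of 1.95 to 8.28. Iglc2 was the exception, at 0.76 with a standard error of 0.55 (adjusted p = 0.319). The values of the 2 groups did not overlap for those 9 members. The IgG genes and Iglc1 among them had entered the test through the VSG group. Among all 13054 genes tested by edgeR, 15% were called higher in VSG than in Sham-WM, and 14.3% did not overlap with VSG higher. The median log2 fold change was 3.58 over the members and 0.03 over all genes tested. At an unadjusted p under 0.05 the same count of 9 members passed, against 22% of all genes, and DESeq2 called 9 members, against 16.6% of genes. The count depended on how unwanted variation between libraries was treated. With 2 factors estimated by RUVs added to the fit, the calls over all genes went from 3509 in either direction to 426, and 2 members were called, Ighg1 (log2 fold change 5.26) and Ighg2b (3.43), Igkc was at 1.58 (adjusted p = 0.0532) and Ighm at 0.77 (adjusted p = 0.493), while with 2 factors estimated by RUVr 9 members and 5491 genes were called. The study's methods use 2 such factors, and the sources used here do not say which of the methods made them.

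**Figure D1:**
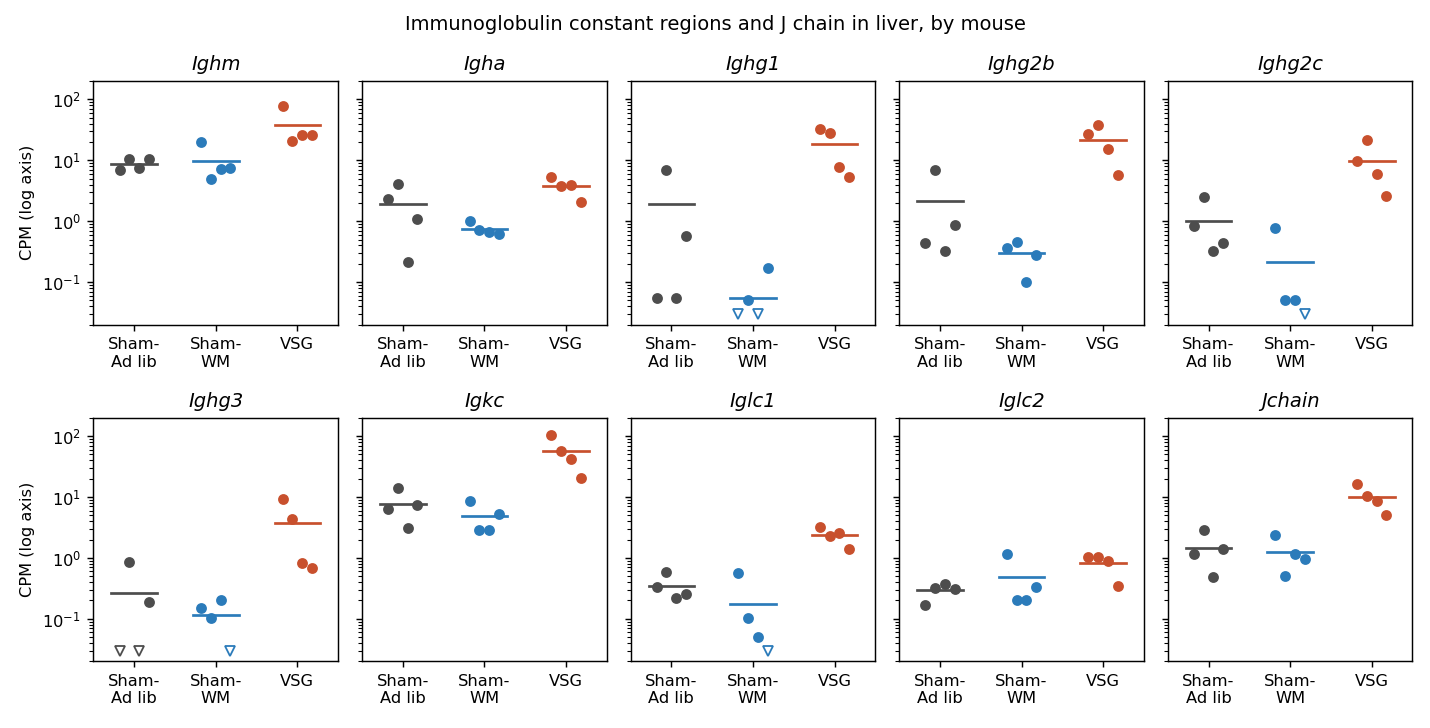
CPM of each member on a log axis, with 1 point for each mouse, a line at each group's mean and open triangles at the foot of a panel for a library with 0 counts. In 9 of the 10 panels the 4 VSG mice lie above the 4 Sham-WM mice; in 5 they also lie above the 4 Sham-Ad lib mice.

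Against Sham-Ad lib, 2 members rose after VSG, Igkc and Jchain, while 0.467% of all genes were called higher. All 10 log2 fold changes were above 0, with a median of 2.81 over the members and 0.03 over all genes. The 4 VSG mice lay above the 4 Sham-Ad lib mice in 5 members, Ighm, Ighg2c, Igkc, Iglc1 and Jchain, against 4.87% of all genes. At an unadjusted p under 0.05, 9 members passed, against 14.3% of genes, and DESeq2 called 6 (Ighm, Ighg2b, Ighg2c, Igkc, Iglc1 and Jchain), against 5.46%. With 2 RUVs factors 0 members and 9 of all genes were called, and with 2 RUVr factors 8 members and 3016 genes, against 98 genes in either direction without such factors. The counts of members and of all genes also moved together when single mice were left out. Without Sham-Ad lib mouse 4F, or without VSG mouse 18F, 8 members were called, all but Igha and Iglc2, and the calls over all genes rose from 98 to 903 and 1089. Without VSG mouse 8F the count was 3, without VSG mouse 11F it was 2, and without VSG mouse 1F, Sham-Ad lib mouse 3F, 6F or 10F, or any 1 of the 4 Sham-WM mice it was 0, with 0 to 3 calls over all genes.

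Food restriction alone moved no member past the threshold in edgeR, while 6.99% of all genes were called in either direction. The log2 fold changes of Sham-WM against Sham-Ad lib were below 0 for 8 members and above 0 for Ighm (0.14) and Iglc2 (0.69), with a median of -1.03. At an unadjusted p under 0.05, 3 members passed (Igha, Ighg1 and Ighg2b), against 21.6% of genes. DESeq2 called 2 (Ighg1 and Ighg2b), against 11.3%. Sham-Ad lib mouse 4F held 131 of the group's 142 Ighg1 counts and 128 of its 156 Ighg2b counts. Over all single mice left out, the edgeR log2 fold change ranged from -6.35 to -1.88 for Ighg1 and from -3.17 to -0.83 for Ighg2b. In no member were the 2 groups apart, against 17.6% of genes apart in either direction. Without Sham-Ad lib mouse 6F, 1 member was called, Igha. The comparisons are not independent, since each group enters 2 of the 3, and both comparisons against Sham-Ad lib share its 4 mice.

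**Figure D2:**
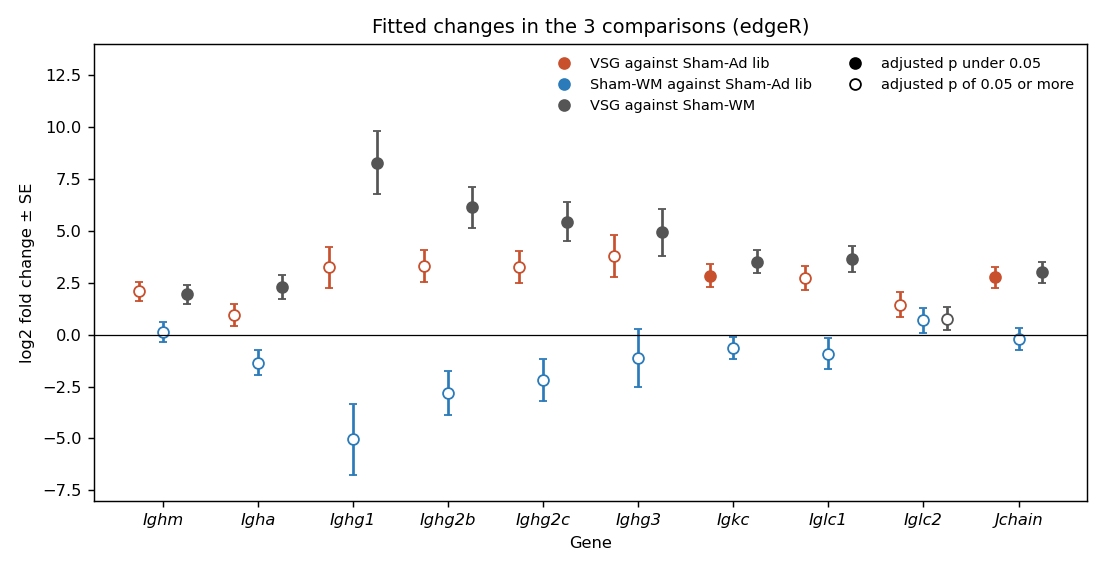
Fitted log2 fold change of each member (points) with its standard error (bars) in the 3 comparisons, filled where the adjusted p was under 0.05. Of the comparisons with Sham-Ad lib, Igkc and Jchain after VSG are the only filled points, and Iglc2 is the only open point in VSG against Sham-WM.

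Ighm, the IgM heavy chain, was on average the most abundant heavy chain per length in every group, at 4.71 ± 1.05 CPM per kb of annotated exon for Sham-Ad lib, 5.18 ± 3.51 for Sham-WM and 20 ± 14.5 for VSG livers. Its CPM values were 6.92, 10.6, 7.41 and 10.5 in the Sham-Ad lib mice, 19.6, 4.97, 7.19 and 7.37 in the Sham-WM mice, and 78.5, 20.6, 25.8 and 26.2 in the VSG mice. The lowest VSG mouse lay just above the highest sham mouse, Sham-WM mouse 2F, and VSG mouse 1F stood far above the other 3. The log2 fold change was 1.95 (SE 0.46, adjusted p = 0.00955) against Sham-WM and 2.09 (SE 0.47, adjusted p = 0.0515) against Sham-Ad lib.

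Igha, the IgA heavy chain, was the lowest heavy chain per length in VSG livers, by less than the standard deviation from Ighg3. It was at 2.34, 4.08, 0.216 and 1.07 CPM for Sham-Ad lib, 1.02, 0.717, 0.663 and 0.619 CPM for Sham-WM and 5.32, 3.73, 3.92 and 2.05 CPM for VSG mice. The VSG values overlapped the wide Sham-Ad lib range and lay above all Sham-WM values. VSG exceeded Sham-WM by a log2 fold change of 2.3 (SE 0.59, adjusted p = 0.014), and the fold change against Sham-Ad lib was 0.95 (SE 0.55, adjusted p = 0.303).

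The IgG genes had the 4 largest fitted log2 fold changes of the 10 members between VSG and Sham-WM. These genes entered the test through the VSG group, so their rank is no separate support. Over all Sham-WM mice, Ighg1 had 4 counts, Ighg2b 23, Ighg2c 17 and Ighg3 9. Ighg1 was nearly absent from weight-matched livers, with 0, 1, 0 and 3 counts in the 4 mice, or at most 0.169 CPM. It was at 0.0558, 7.03, 0.0541 and 0.565 CPM in the Sham-Ad lib mice and at 32.6, 27.9, 7.83 and 5.29 CPM in the VSG mice. All the VSG mice were above the sham mice except that Sham-Ad lib mouse 4F, with 7.03 CPM, lay between the VSG values of 5.29 and 7.83 CPM. Summed over mice, Ighg1 had 1288 counts in VSG and 4 in Sham-WM, a ratio of 353 after division by the library totals, with an exact 95% interval of 138 to 1298 for counting error. The fitted log2 fold change of 8.28 (SE 1.51, adjusted p = 0.00258) rests on those 4 counts. Against Sham-Ad lib it was 3.24 (SE 0.97, adjusted p = 0.0844).

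Ighg2b had 8, 128, 6 and 14 counts for Sham-Ad lib, 7, 9, 2 and 5 for Sham-WM and 457, 734, 207 and 100 for VSG mice. Mouse 4F again lay inside the VSG range, and every other sham mouse lay below it. Its log2 fold change was 6.13 (SE 0.98, adjusted p = 0.00144) against Sham-WM and 3.32 (SE 0.78, adjusted p = 0.0542) against Sham-Ad lib. Divided by the library totals, the summed counts were 71.5 times as high in VSG as in Sham-WM, with an interval of 47.4 to 113.1.

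Ighg2c, the form of IgG2 carried by C57BL/6 mice in place of IgG2a, had 15, 46, 6 and 7 counts for Sham-Ad lib, 15, 1, 1 and 0 for Sham-WM and 161, 417, 80 and 46 for VSG mice. In CPM the 4 VSG mice (9.62, 21.3, 6.03 and 2.62) were above all the sham mice, the closest being mouse 4F at 2.47. The log2 fold change was 5.45 (SE 0.94, adjusted p = 0.00205) against Sham-WM and 3.26 (SE 0.78, adjusted p = 0.0567) against Sham-Ad lib. Ighg3 was the least abundant IgG gene in VSG livers, with 155, 84, 11 and 12 counts, against 0, 16, 0 and 3 in Sham-Ad lib and 3, 2, 4 and 0 in Sham-WM mice. Its 2 highest values were in VSG mice 1F and 8F, while VSG mice 11F and 18F did not exceed Sham-Ad lib mouse 4F (0.859 CPM). The log2 fold change was 4.93 (SE 1.12, adjusted p = 0.00737) against Sham-WM and 3.8 (SE 1.01, adjusted p = 0.0655) against Sham-Ad lib.

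Among the light chains Igkc, the kappa constant region, was the most abundant member of all, at 14.6 ± 8.7 CPM per kb for Sham-Ad lib, 9.24 ± 5.2 for Sham-WM and 105.6 ± 66.1 for VSG livers. It was at 6.36, 14.1, 3.08 and 7.47 CPM for Sham-Ad lib, 8.71, 2.87, 2.86 and 5.23 CPM for Sham-WM and 103.8, 57.7, 42.4 and 20.8 CPM for VSG mice. The 3 groups separated into VSG above and both sham groups mixed below. Igkc rose by a log2 fold change of 2.85 (SE 0.53, adjusted p = 0.0435) against Sham-Ad lib and was higher than in Sham-WM by 3.51 (SE 0.55, adjusted p = 0.00127).

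Of the lambda constant regions, Iglc1 passed against Sham-WM and Iglc2 did not. Iglc1 had 6, 11, 4 and 4 counts for Sham-Ad lib, 11, 2, 1 and 0 for Sham-WM and 54, 44, 34 and 25 for VSG mice, with no overlap of VSG and either sham group. Its log2 fold change was 3.65 (SE 0.64, adjusted p = 0.00224) against Sham-WM and 2.73 (SE 0.59, adjusted p = 0.051) against Sham-Ad lib. Iglc2 had 3, 6, 7 and 5 counts for Sham-Ad lib, 23, 4, 4 and 6 for Sham-WM and 17, 20, 12 and 6 for VSG mice, so the groups overlapped. Sham-WM mouse 2F was the highest of all 12 for Iglc2 at 1.17 CPM. Without 2F, Iglc2 also passed in VSG against Sham-WM, which then called all 10 members. The difference between the 2 lambda genes was not tested. Iglc3, the near copy of Iglc2, had 1, 7, 6 and 3 counts for Sham-Ad lib, 11, 6, 5 and 2 for Sham-WM and 16, 11, 15 and 13 for VSG mice, and passed against Sham-WM (log2 fold change 1.4, SE 0.49, adjusted p = 0.0492). Like Iglc1 and Iglc2, Iglc3 entered the test through the VSG group.

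Jchain, which is made with IgM and IgA and also by plasma cells of other classes, was at 1.17, 2.84, 0.487 and 1.38 CPM for Sham-Ad lib, 2.4, 0.512, 1.17 and 0.957 for Sham-WM and 16.3, 10.4, 8.66 and 5.12 for VSG mice. The lowest VSG mouse (5.12 CPM) was above the highest sham mouse (4F, 2.84 CPM). It rose by a log2 fold change of 2.77 (SE 0.51, adjusted p = 0.0435) against Sham-Ad lib and was higher by 3 (SE 0.52, adjusted p = 0.00205) than in Sham-WM.

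Ordered by CPM per kb in VSG livers, Igkc (105.6) and Ighm (20) were followed by Ighg2b (8.03 ± 5.16), Ighg2c (7.46 ± 6.12), Ighg1 (7.1 ± 5.34), Iglc1 (5.21 ± 1.65) and Jchain (4.02 ± 1.86), and then by Ighg3 (1.5 ± 1.6), Igha (1.41 ± 0.502) and Iglc2 (1.34 ± 0.529). The differences between neighbours from Ighm to Jchain, and from Ighg3 to Iglc2, were smaller than the larger of the neighbours' standard deviations. In Sham-Ad lib livers Igkc and Ighm also came first, and the next 7 genes lay between 0.483 (Iglc2) and 0.795 (Ighg2b) with Ighg3 last at 0.104. In Sham-WM livers the 4 IgG genes held the last 4 places, from Ighg2c at 0.163 down to Ighg1 at 0.0212. These levels depend on the annotated exon length, which is 1326 bases for Ighg2c and 2512 to 2678 bases for the other IgG genes.

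IgG genes made up a larger part of the heavy chain transcript in VSG than in weight-matched livers, with no overlap between the 8 mice. Taking the 6 heavy chain genes per kb as 100%, the IgG genes made up 6.68%, 8.55%, 3.74% and 3.95% in Sham-WM mice and 43.6%, 77.6%, 47.6% and 30.4% in VSG mice. In Sham-Ad lib mice they made up 15.3%, 51.1%, 8.8% and 13.7%, so that only mouse 4F fell within the VSG range. Ighm took 83% to 90.7% in Sham-WM, 38.5% to 89.4% in Sham-Ad lib and 19.9% to 66% in VSG livers. The share of Igha averaged 8.6% ± 6.27 for Sham-Ad lib, 5.76% ± 2.12 for Sham-WM and 3.46% ± 1.2 for VSG livers.

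**Figure D3:**
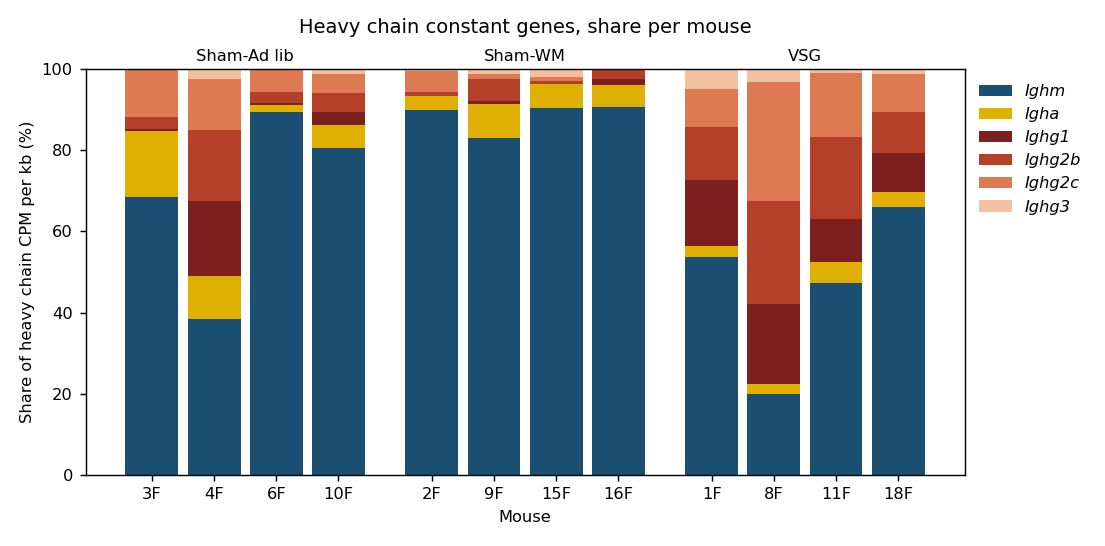
Share of each heavy chain constant gene in the summed CPM per kb of the 6 heavy chain genes (bars from 0 to 100%), 1 bar for each mouse. The 4 IgG genes (red shades) take 30.4% to 77.6% in VSG mice, 3.74% to 8.55% in Sham-WM mice and 8.8% to 51.1% in Sham-Ad lib mice.

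The 5 ratios between members were compared in 3 pairs of groups with exact two-sided permutation tests, 15 in all, where the smallest p that 4 against 4 mice allow is 0.0286. None passed after adjustment by Benjamini-Hochberg (smallest adjusted p = 0.107). A ratio could pass only if most of the 15 tests reached 0.0286, so the adjusted tests could not decide whether single ratios differed. Of the 15, 4 had groups that did not overlap, each at that smallest exact p of 0.0286. The log2 ratio of summed IgG counts to Ighm was higher by 4.06 in VSG than in Sham-WM, with means of 0.38 ± 1.27 and -3.68 ± 0.6 (SD, n = 4). The log2 ratio of Igha to the IgG genes was lower in VSG, with a difference of -2.62 from Sham-Ad lib and -3.79 from Sham-WM. The log2 ratio of Jchain to Igha and Ighm together was higher by 1.08 in VSG than in Sham-WM (-1.95 ± 0.57 against -3.03 ± 0.27). The ratio of Igha to Ighm differed by -0.43 and 0.26 between VSG and the 2 sham groups (exact p = 0.629 and 0.571).

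The balance of light chains overlapped among the groups. Iglc1 and Iglc2 together made up 6.44% to 15.9% of light chain CPM per kb for Sham-Ad lib, 5.31% to 16.1% for Sham-WM and 4.3% to 8.62% for VSG livers. The log2 ratio of lambda to kappa counts differed by -0.88 between VSG and Sham-WM and by -0.64 between VSG and Sham-Ad lib, with exact p = 0.0857 and 0.257 before adjustment. Iglc3 is left out of these shares and ratios, although in VSG livers its mean was 0.847 CPM beside 0.82 CPM for Iglc2.

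Reads on the variable segments come from the same transcripts and libraries as those of the constant regions. They are given as a description and are not separate support. Each B cell joins 1 variable segment to its heavy chain and 1 to its light chain, so that different B cell clones carry different segments. Summed over 346 segments in the table, the level was 3.22, 12.2, 2.87 and 4.01 CPM for Sham-Ad lib, 6.9, 3.52, 3.3 and 2.35 CPM for Sham-WM and 55.6, 48, 18.6 and 17.2 CPM for VSG mice. All 4 VSG mice were above all 8 sham mice, of which 4F was the highest, as for the constant regions. A VSG mouse had 85 to 144 segments with at least 1 count, and a sham mouse 31 to 84. This number grows with the counts: drawn down to the 42 counts of the shallowest library, each library was expected to hold 25 to 31 segments in Sham-WM, 27.7 to 32.1 in Sham-Ad lib and 31.5 to 32.7 in VSG mice.

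**Figure D4:**
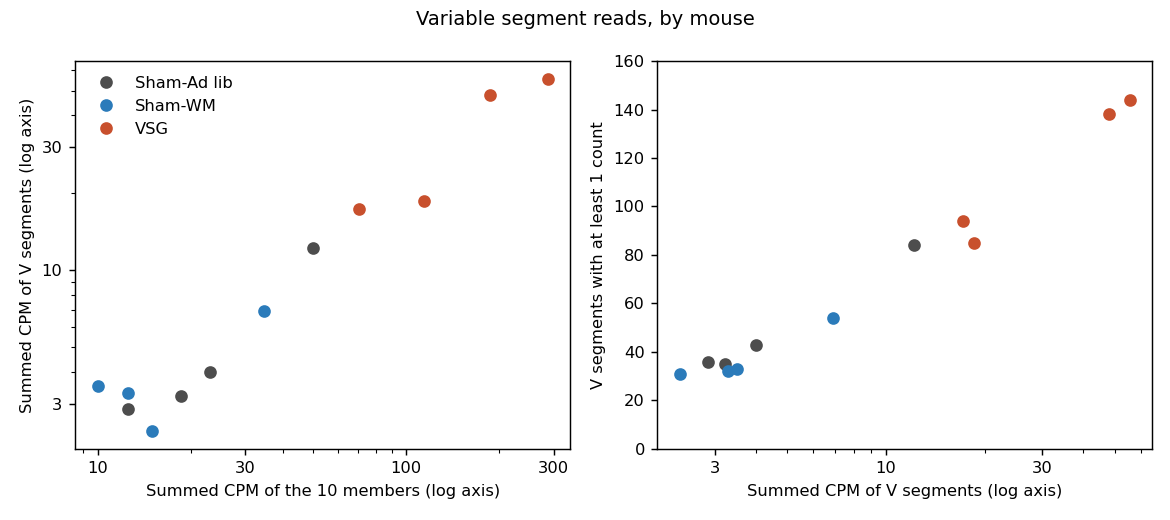
Left, summed CPM of the variable segments against summed CPM of the 10 members, both on log axes; right, number of segments with at least 1 count against their summed CPM. Each point is 1 mouse, and the 4 VSG mice lie at the upper right of both panels, at 17.2 to 55.6 CPM of segments.

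No single segment dominated. The most abundant one took 4.14% to 8.91% of segment counts in VSG mice and 5.66% to 10.8% in sham mice. It was Igkv6-15 in VSG mouse 1F (45 counts), Ighv1-82 in 8F (39 counts), Iglv1 in 11F (22 counts) and Igkv12-44 in 18F (13 counts), a different segment in each. Over all libraries the leading kappa segments were Igkv1-117, Igkv1-110, Igkv6-15, Igkv10-96 and Igkv3-2, the leading heavy chain segments were Ighv1-82, Ighv1-26, Ighv6-3, Ighv9-3 and Ighv1-80, and Iglv1 led the 3 lambda segments. Ighv1-82 had 48 counts in VSG mice, 39 of them in 8F, and 3 counts in all 8 sham mice. Iglv1, a lambda variable segment, had 43, 37, 22 and 12 counts in the VSG mice and 0 to 11 in the sham mice.

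Other immunoglobulin constant genes were low in count. Of these Iglc3, described above, was higher in VSG livers (0.847 ± 0.248 CPM) than in Sham-Ad lib (0.236 ± 0.144) and Sham-WM livers (0.309 ± 0.187). Ighd, the IgD heavy chain of resting B cells, had 12 to 33 counts for Sham-Ad lib, 14 to 34 for Sham-WM and 19 to 38 for VSG mice, with a log2 fold change of 0.5 (SE 0.36, adjusted p = 0.319) between VSG and Sham-WM. Ighe, the IgE heavy chain, had 2 counts, both in VSG mouse 1F, and Iglc4 had 0 counts in all 12 libraries.

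The genes of B cells had smaller fold changes than the constant regions, a comparison given without a test. Of 17 B cell genes, 14 were tested. In VSG against Sham-WM, 5 were called higher (among them Cd79b, Cd22, Bank1 and Cd37) and 0 lower, while 15% of all genes were called higher. After VSG against Sham-Ad lib edgeR called 0, while 0.467% of all genes were called higher. In that comparison 7 had an unadjusted p under 0.05, against 14.3% of all genes with VSG higher. Their median log2 fold change between VSG and Sham-WM was 0.85. Cd22, an inhibitory receptor of B cells, had a log2 fold change of 1.81 (adjusted p = 0.00664) against Sham-WM. Ms4a1, which encodes CD20, and Pax5, the B cell identity factor, had log2 fold changes of 0.83 (adjusted p = 0.206) and 0.13 (adjusted p = 0.873). The summed level of the list was 19.6 to 31.1 CPM in VSG, 10.9 to 12.7 in Sham-WM and 10.1 to 20.3 in Sham-Ad lib mice.

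Plasma cell genes gave a mixed result. Of 14, 9 were tested. In VSG against Sham-WM, 3 were called higher (Prdm1, Derl3 and Fkbp11) and 2 lower (Sdc1 and Txndc5), while 15% of all genes were called higher and 11.9% lower. Against Sham-Ad lib edgeR called 0, with 1 at an unadjusted p under 0.05, against 14.3% of all genes with VSG higher. Prdm1, the factor that drives plasma cell formation, had a log2 fold change of 1.92 (SE 0.53, adjusted p = 0.02). Sdc1, which encodes the plasma cell marker CD138, was at 172 ± 12.9 CPM in VSG and 291 ± 46.8 CPM in Sham-WM livers, and hepatocytes also express it, as they do Xbp1 and Txndc5. Mzb1, a chaperone of plasma cells and some B cells, fell under the filter and was not tested. It had 7 to 20 counts in VSG mice and 3 to 6 in the sham mice. Tnfrsf17, the plasma cell receptor BCMA, had 0 to 2 counts in every library. The other genes under the filter overlapped. Pou2af1 had 5 to 21 counts in VSG mice and 2 to 18 in sham mice, and Tnfrsf13b 7 to 33 and 0 to 10. Cd28 had 0 to 13 counts in VSG mice and 0 to 7 in sham mice.

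Of 15 genes that bind or carry antibody, 14 were tested, and 5 were called higher and 1 lower in VSG than in Sham-WM. Over all genes, 15% were called higher and 11.9% lower. Pigr, the receptor that carries polymeric IgA and IgM, was at 2000 ± 268 CPM for Sham-Ad lib, 1840 ± 292 for Sham-WM and 1860 ± 480 for VSG livers, with a log2 fold change of 0.02 (SE 0.19, adjusted p = 0.957) between VSG and Sham-WM. Fcgrt, which protects IgG from degradation, had one of 0.31 (SE 0.13, adjusted p = 0.103). The activating Fc receptors of myeloid cells were higher in VSG than in Sham-WM: Fcgr1 by 2.05, Fcgr3 by 2.32, Fcgr4 by 2.4 and their shared signalling chain Fcer1g by 2.22, with adjusted p-values of 0.00627, 0.00136, 0.00258 and 0.00238. The inhibitory receptor Fcgr2b had a log2 fold change of -0.25 (SE 0.19, adjusted p = 0.349). Cd5l, a macrophage protein that binds IgM, was higher by 2.17 (adjusted p = 0.00309), and Tfrc, a transferrin receptor that can bind IgA, had a log2 fold change of -1.97 (adjusted p = 0.00194). Against Sham-Ad lib only Fcer1g among the 14 tested genes of this list was called (1.85, SE 0.39, adjusted p = 0.0493), while 0.467% of all genes were called higher.

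Of 22 genes for B cell recruitment, survival and switching, 9 were tested, and 3 were called higher and 1 lower in VSG than in Sham-WM. The shares over all genes were 15% higher and 11.9% lower. Against Sham-Ad lib edgeR called 0, with 5 at an unadjusted p under 0.05, against 14.3% of all genes with VSG higher. Cxcl13, the chemokine that draws B cells, had 842, 125, 209 and 32 counts in VSG mice against 2, 44, 3 and 4 in Sham-Ad lib and 13, 3, 7 and 3 in Sham-WM mice. It was higher in VSG than in Sham-WM by a log2 fold change of 5.75 (SE 1.1, adjusted p = 0.00319). Cxcl13 had entered the test through the VSG group. Pou2f2, a transcription factor that acts on immunoglobulin promoters, was higher by 3.34 (SE 0.57, adjusted p = 0.00194) and Vcam1 by 0.97 (SE 0.31, adjusted p = 0.0326), while Cxcl12, which retains plasma cells in marrow, had a log2 fold change of -0.67 (SE 0.16, adjusted p = 0.0112).

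Of the markers of other blood and liver cells, those of Kupffer cells and neutrophils, and some of T and NK cells, were also higher in VSG than in Sham-WM livers. The other lists gave few calls. Over all genes tested, 15% were called higher and 11.9% lower in VSG than in Sham-WM, and 0.467% higher in VSG than in Sham-Ad lib. All 11 Kupffer cell genes were called higher in VSG than in Sham-WM, with a median log2 fold change of 1.98, and their summed level was 626 to 1710 CPM in VSG, 169 to 280 in Sham-WM and 188 to 595 in Sham-Ad lib mice. Against Sham-Ad lib, 3 of the 11 were called higher. Of 12 neutrophil genes, 10 were tested and 10 were called higher, with a median of 7.44 and summed levels of 40 to 1160 CPM in VSG, 2.66 to 4.12 in Sham-WM and 1.41 to 23.3 in Sham-Ad lib mice. Against Sham-Ad lib, 8 of the 10 were called higher. Camp and Ly6g, neutrophil genes, were at 0 in all Sham-WM mice. Genes such as Camp, Ngp, Ltf, Elane, Mpo and Retnlg were near 0 in most sham mice. They therefore entered the test through the VSG group, and their calls and the list's median are no separate support. Of 16 T and NK cell genes, 7 were tested and 4 were called higher, with summed levels of 9.89 to 15.3 CPM in VSG and 4.69 to 9.42 in Sham-WM mice. The defining hepatocyte gene Alb had a log2 fold change of -0.73 between VSG and Sham-WM (adjusted p = 0.0294). Of the 9 hepatocyte genes tested, 2 were called lower and 1 higher, with a median of 0.16. Of 7 red cell genes, 1 was called, as higher, which is near the share over all genes. Of 11 genes of pancreas and fat, 2 were tested and neither was called, with Cpa1, Pnlip and Lep at 0 in every library. Of 9 genes of lymph node stroma in the table, 5 were tested and 1, Cxcl13, was called, with Glycam1 at 0 in every library. Between Sham-WM and Sham-Ad lib, 3 of the 96 tested genes of all lists were called, Sdc1 and Tfrc as higher and Cfd as lower, while 6.99% of all genes were called in either direction. The part of these cell types in the result for the immunoglobulin genes was not tested.

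**Figure D5:**
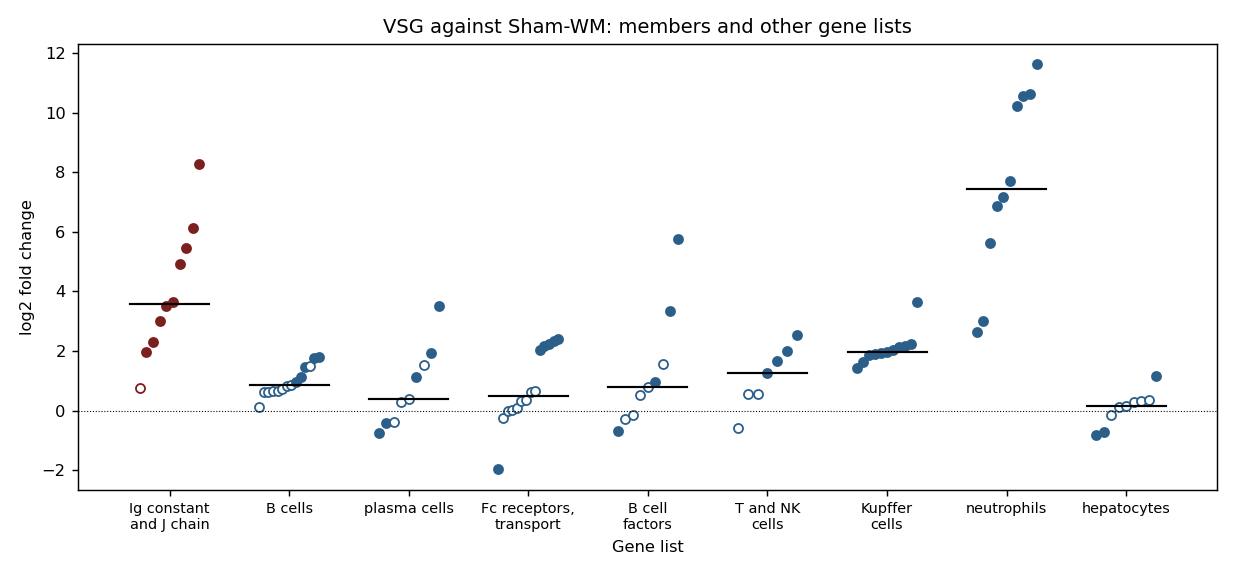
Fitted log2 fold change between VSG and Sham-WM for each tested gene (points, filled where the adjusted p was under 0.05) in the 10 members and in other gene lists, with a line at each list's median. The members' median of 3.58 lies above those of B cells (0.85), plasma cells (0.39) and Kupffer cells (1.98) and below that of neutrophils (7.44). Several members and neutrophil genes entered the test through the VSG group.

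The genes whose level followed the summed members most closely over the 12 mice were Apobec3 (Spearman rho = 0.986), Clec4e, Elane and Fam111a (0.965 each), Irf7 and Wdr55 (0.958 each), and Arl2bp, Fgr, Ggh and Mpv17 (0.951 each), of 13039 genes outside the immunoglobulin loci. Ties at 0.951 took the number to 12, and the last 4 were taken in alphabetical order. The group means of both enter this measure. After the group means were subtracted, the closest were Fam111a (0.951), Chd1l (0.944), Dram1 (0.937), Irf7 and S100a9 (0.93 each), Csf2ra (0.923), and AI506816, Atp8b4, Lrmp and Necap2 (0.916 each). S100a9 encodes a neutrophil protein and Irf7 an interferon response factor. The values share libraries and depth, are given as a description and carry no test.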

How the data were processed

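RNA of 12 livers was sequenced as directional poly(A) libraries. Per the labels and the methods, the authors aligned reads to mm10 with TopHat2 2.1.1 and counted them per gene with featureCounts, and the deposited table holds raw counts (strand setting not given in the sources used here). The members and gene lists were chosen with earlier results of these data known. Of 46078 genes, 13054 passed filterByExpr (minimum count 10) and were fitted over all 12 libraries with the quasi-likelihood test of edgeR 4.0.16 (R 4.3.3, TMM factors), with Benjamini-Hochberg adjustment over all of them and a threshold of 0.05. DESeq2 1.42.0 and factors of unwanted variation (the authors used RUVSeq with 2 factors) were alternatives. CPM used TMM-scaled library totals of 15122520 to 19384076 counts, and per kb values the exon lengths of GENCODE M21. Ratios of members (pseudocount 1) were compared with exact permutation tests (SciPy 1.17.1). Intervals of count ratios cover counting error only. Genes named outside the members came from the lists, or from the closest Spearman correlations with the summed members. Symbols were matched for 45143 genes by Ensembl identifier, and sequences are from GENCODE M21 transcripts.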

Additional observations from a re-analysis of the deposited data

Results flagged for a closer look

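In 30 groups of 4 mice (10 members in 3 groups), 6 held a mouse that stood apart from the other 3 in CPM by Dixon's test at the 95% level. The 10 members were measured in the same mice, so the 30 groups are not independent. The count of 6 can therefore not be set against a rate of 1 in 20. Sham-Ad lib mouse 4F stood apart for Ighg1 (7.03 CPM, the others 0.0541 to 0.565) and Ighg2b (6.87 CPM, the others 0.325 to 0.878). Sham-WM mouse 2F stood apart for Ighm (19.6 CPM, the others 4.97 to 7.37), Ighg2c (0.764 CPM, the others 0 to 0.0512) and Iglc2 (1.17 CPM, the others 0.204 to 0.338). VSG mouse 1F stood apart for Ighm (78.5 CPM, the others 20.6 to 26.2).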

How the results depend on the processing

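The 9 members called between VSG and Sham-WM stayed 9 to 10 when any 1 mouse was left out, and DESeq2 and the other normalisations also called 9. The count was 2 of 2 tested with at least 10 counts in every library, 2 with 2 RUVs factors, and 0 with the description grouping. Calls over all genes were 3509 in the main fit, 2196 to 3868 without 1 mouse and 4089 with DESeq2. They were 3128 with at least 10 counts in every library, 426 with 2 RUVs factors and 0 with the description grouping. The 2 members called between VSG and Sham-Ad lib became 6 with DESeq2, 8 with no filter, 8 with 2 RUVr factors, 3 with DESeq2 size factors in edgeR, and 0 with at least 10 counts in every library (2 members tested), with only the 2 groups compared, with 2 RUVs factors and with the description grouping; leaving out 1 mouse gave 0 to 8. Calls over all genes moved too, from 98 to 1202 with DESeq2, 628 with no filter, 3016 with 2 RUVr factors, 127 with DESeq2 size factors, 9 with 2 RUVs factors, 0 under each of the other settings that called 0 members, and 0 to 1089 without 1 mouse. For Sham-WM against Sham-Ad lib the count of 0 became 2 with DESeq2 and 1 with no filter, with 2 RUVs factors and with 2 RUVr factors, and was 0 to 1 without 1 mouse. Calls over all genes in that comparison went from 912 to 1445 with DESeq2, 789 with no filter, 1688 with RUVs and 2193 with RUVr. Without 1 mouse they were 424 to 1311. None of the 15 ratios passed under any alternative. With 1 mouse left out no ratio could have passed, so those settings could not test the ratios. No paired analysis was possible because the groups share no replicate numbers. These shifts bound what 4 mice a group can show, and Ighg1, Ighg2c and Ighg3 had under 20 counts over all Sham-WM mice. The cause was not tested.

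Genes of the other lists (counted after seeing the data) gave 13 calls for VSG against Sham-Ad lib, and 31 with DESeq2, 29 with no filter, 44 with RUVr, 6 with RUVs, 0 with at least 10 counts in every library, with only the 2 groups and with the description grouping, and 0 to 36 without 1 mouse. The 3 calls for Sham-WM against Sham-Ad lib became 7 with DESeq2, 5 with no filter, 5 with only the 2 groups, 6 with RUVs, 10 with RUVr, 0 with the description grouping, and 2 to 4 without 1 mouse. The 49 for VSG against Sham-WM became 30 with at least 10 counts in every library, 9 with RUVs, 0 with the description grouping, and 40 to 53 without 1 mouse. Over all genes the main fit called 98, 912 and 3509 in these comparisons, in the same order. The mean number of variable segments with at least 10 counts was 1 for Sham-Ad lib, 0.25 for Sham-WM and 17.5 for VSG, and 49.5, 37.5 and 115.25 with at least 1 count; with at least 30 counts it was 1.5 in VSG.

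These log2 values changed sign. With 2 RUVs factors: Igha after VSG against Sham-Ad lib (-0.01), Ighg3 and Jchain in Sham-WM against Sham-Ad lib (0.19 each), and Iglc2 in VSG against Sham-WM (-0.57). With the description grouping, in Sham-WM against Sham-Ad lib: Ighm -0.21, Igha 0.51, Ighg1 2.09, Ighg2b 1.46, Ighg2c 1.95, Ighg3 2.18, Igkc 0.44, Iglc1 0.23 and Jchain 0.25, and the ratios Igha to Ighm 0.35, IgG to Ighm 1.71, Igha to IgG -1.35 and Jchain to Igha and Ighm -0.07. With the same grouping, in VSG against Sham-WM: Ighg2b -0.42 and Ighg2c -0.81, and the ratios Igha to Ighm -0.48, IgG to Ighm -0.95, Igha to IgG 0.47 and Jchain to Igha and Ighm -0.02; against Sham-Ad lib: lambda to kappa 0.06 and Jchain to Igha and Ighm -0.09. Leaving out 1 mouse, in Sham-WM against Sham-Ad lib: without 4F Ighg3 0.94 and Jchain 0.33, without 2F Ighm -0.45, Iglc2 -0.25 and lambda to kappa -0.03, without 9F Jchain 0.04, and Jchain to Igha and Ighm -0.26 without 6F, -0.11 without 15F and -0.01 without 16F. Without 4F, Igha to Ighm after VSG against Sham-Ad lib was 0.02. Over all single mice left out, these ranged in Sham-WM against Sham-Ad lib from -0.45 to 0.36 (Ighm), -1.55 to 0.94 (Ighg3), -0.25 to 0.95 (Iglc2), -0.74 to 0.33 (Jchain), -0.03 to 0.58 (lambda to kappa), and after VSG against Sham-Ad lib from -1.12 to 0.02 (Igha to Ighm). The cause was not tested.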
